A study of Arabidopsis with 6 samples.

Results

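Of the 5 Arabidopsis thaliana genes that encode ubiquitin fused to a ribosomal protein, 1 was measured here, the S27a gene AT1G23410, and its signal was 4.07 times as high in apum23 plants as in wild type. The 5 loci were listed by name as 3 genes for ribosomal protein S27a (AT1G23410, AT2G47110 and AT3G62250) and 2 for ribosomal protein L40 (AT2G36170 and AT3G52590). A locus was read from the brightest probe set (the group of short probes on the array that report 1 transcript) that the table of probe genes pairs with that gene alone. That table names 1 such probe set for AT1G23410 and 0 for each of the other 4 loci. UBQ6 (AT2G47110), UBQ5 (AT3G62250), UBQ1 (AT3G52590) and AT2G36170 are therefore not analysed here, and the paralogs could not be compared with each other. AT1G23410 is 1 of 13286 measured loci. The loci were chosen by name, with earlier results of these data known, so the choice was not blind to them. Their probe sets were to be selected on mean intensity over the 6 arrays, which left nothing to choose with 1 probe set.

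The study compared plants of the Col-3 wild type with apum23 mutants in the same background, without further treatment, to find which transcripts differ in the mutant. Both groups grew on soil for 21 days (22 °C, with a day of 8 h and a night of 16 h), and RNA of their aerial parts was hybridized to Affymetrix ATH1 arrays, 3 per genotype. APUM23 is a nucleolar RNA-binding protein of the Pumilio family with a role in processing the precursor of ribosomal RNA. The series design names the mutant allele apum23-1. The descriptions of replicates 2 and 3 read apum23-2 and apum23-3, and the sources used here do not say whether these are alleles or replicate numbers. How many plants went into a sample is not given either, so p-values measure the spread between these 6 samples, which the main limma fit pools over all probe sets. The level of APUM23 itself is not analysed here. In bulk aerial tissue, fewer cells that express a gene and less RNA per cell cannot be told apart.

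Ubiquitin is a small protein that cells attach to other proteins, often to mark them for destruction by the proteasome. It is never made alone. Polyubiquitin genes encode chains of ubiquitin units, and ubiquitin extension genes encode 1 ubiquitin joined to the front of a ribosomal protein, S27a of the small (40S) subunit or L40 of the large (60S) subunit. Deubiquitinases cut the fusion, which releases free ubiquitin together with a ribosomal protein that enters ribosome assembly. A transcript such as that of AT1G23410 is thus at once a ribosomal protein message and a source of ubiquitin. The sequences of these genes are not shown, as the reference tables used here hold gene names only.

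AT1G23410 gave log2 intensities of 5.71, 6.32 and 6.25 on wild-type arrays 1, 2 and 3. On apum23 arrays 1, 2 and 3 it gave 7.98, 8.04 and 8.33. All 3 mutant arrays lay above all 3 wild-type arrays, and the gap of 1.67 between the nearest arrays of the genotypes was wider than the range within wild type (0.60) or within apum23 (0.35). This order, with all apum23 arrays above all wild-type arrays, was seen in 11.0% of the 22746 probe sets tested. The signal was not near the floor of the array in either genotype, since the lower quartiles of the 6 arrays were between 3.41 and 3.84.

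The group means were 6.09 ± 0.33 in wild type and 8.12 ± 0.19 in apum23 (log2 intensity, SD, n = 3), a log2 difference of 2.03, which is 4.07-fold on the linear scale. In the limma fit of the deposited values the standard error of this difference was 0.22 and the adjusted p was 8.55e-17 (two-sided, adjusted over all probe sets tested). That fit gave 1 pooled spread to every probe set, so the spread of the gene's own 6 values had no separate weight in this p. The standard error from the gene's own values was also 0.22. Of all probe sets tested, 5.31% were called higher in apum23 at an adjusted p under 0.05 and 1.38% lower.

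The arrays differed in overall brightness, with medians from 5.34 to 6.10, so the gene was also read relative to its array. Relative to the median of the array, it was at 0.38, 0.55 and 0.32 in wild type and at 2.28, 2.29 and 2.24 in apum23. The SD was then 0.12 in wild type and 0.03 in apum23, lower than on the deposited scale. After quantile normalization, which gives all arrays 1 distribution, wild type was at 6.14, 6.30 and 6.07 and apum23 at 8.11, 8.04 and 8.11. The difference on that scale was 1.91 (3.77-fold; SE 0.0994; limma adjusted p = 5.08e-07), where 9.69% of probe sets were called higher and 10.0% lower. Quantile normalization moved the median change of all probe sets by -0.10 and centring on medians moved it by -0.17. Relative to that median, AT1G23410 was 1.94 higher as deposited, 1.93 higher after quantile normalization and 1.94 higher after centring.

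The rank of the probe set on its own array needs no scaling between arrays. In wild type AT1G23410 was brighter than 54.5%, 56.7% and 53.7% of the probe sets on the array. In apum23 it was brighter than 82.9%, 82.0% and 82.8%. Each mutant array thus placed it at least 25.3 percentage points above any wild-type array.

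**Figure D1:**
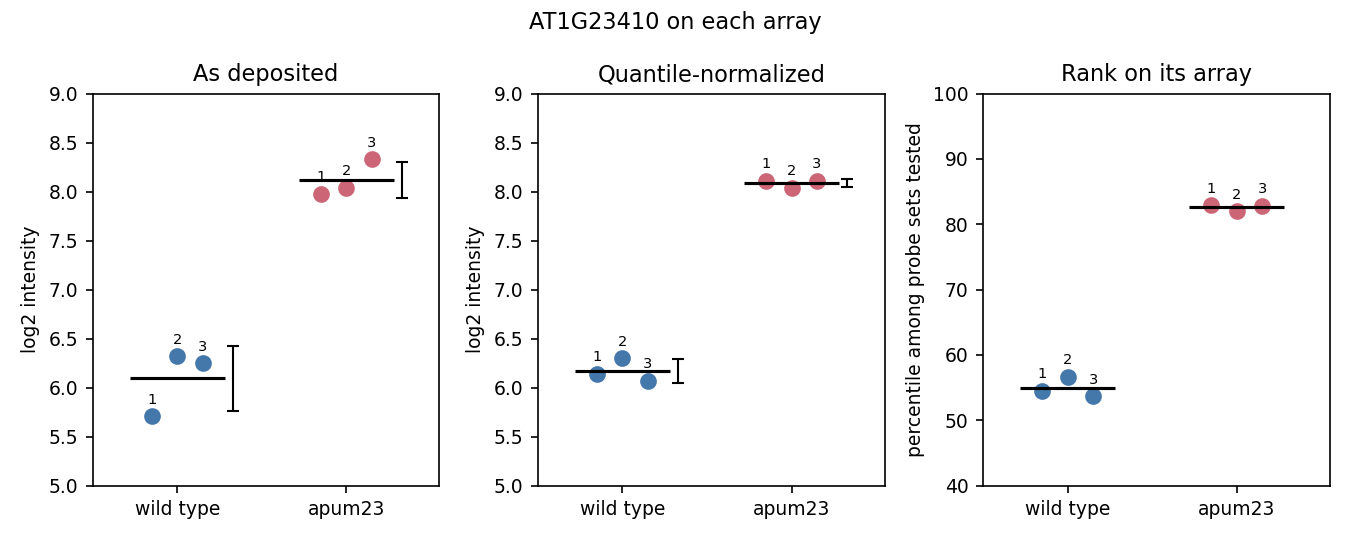
AT1G23410 on the 3 wild-type and 3 apum23 arrays, as deposited log2 intensity, as quantile-normalized log2 intensity and as the percentile of the probe set among all those tested on the same array. Points are arrays numbered by replicate, horizontal lines are group means and error bars are SD (n = 3). Wild-type arrays sit at percentiles 53.7 to 56.7 and apum23 arrays at 82.0 to 82.9.

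AT1G23410 had a larger log2 change than all but 2 of the other measured genes for cytosolic ribosomal proteins. Apart from AT1G23410, 131 of 233 listed cytosolic ribosomal protein genes were measured. Limma called 56 of these higher, 0 lower and 75 neither, against 5.31% of all probe sets called higher and 1.38% called lower. At an unadjusted p under 0.05 there were 93 higher and 0 lower, a threshold at which the share of all probe sets is not given here. After quantile normalization 103 were called higher and 0 lower, against 9.69% and 10.0% of all probe sets. As deposited, leaving out wild-type replicate 2 gave 37 called higher, leaving out apum23 replicate 2 gave 29 and leaving out apum23 replicate 3 gave 25. The median log2 change of the 131 was 0.60, with quartiles of 0.42 and 0.82, beside a median of 0.08 for all probe sets. Some of the 131 were near the floor of the array in both genotypes. Examples are AT5G43640 (wild-type mean 2.73, apum23 mean 2.81) and AT2G39590 (2.83 and 2.75), which count among the 75 not called.

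With its change of 2.03, AT1G23410 ranked 3 among the 132 measured cytosolic ribosomal protein genes and 2 among the 48 of the small subunit. It ranked 23 among all 13286 measured loci. A log2 change of 1 or more was seen in 14 of the 132 genes (10.6%) and in 1.74% of all probe sets. AT1G23410 kept rank 3 among the ribosomal protein genes tested in all 20 alternative fits. Among these were fits that left out each array in turn on either scale, and 1 that kept a single mutant array. Centring, the replicate block, the intensity trend and the restriction to probe sets with 1 gene could not move this rank, since they leave the differences between these genes as they are.

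The difference from the other ribosomal protein genes was measured within arrays, where a shift of a whole array cancels. AT1G23410 minus the mean log2 intensity of the other 131 genes was -3.40, -3.16 and -3.31 on the wild-type arrays and -1.88, -1.98 and -1.89 on the apum23 arrays. The 2 sets of values did not overlap. AT1G23410 thus changed by 1.38 more than the average of these genes (exact two-sided permutation p = 0.1, the lowest this design of 3 arrays against 3 allows). Against the other 47 small subunit genes alone the excess was 1.40, and after quantile normalization of all 131 it was 1.33. These averages include the genes near the floor of the array. The 7 ribosomal protein genes of like brightness, described below, had a median change of 1.23, above the 0.60 of all 131. Values below 0 here compare probe sets of different binding strength and do not rank transcript amounts.

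**Figure D2:**
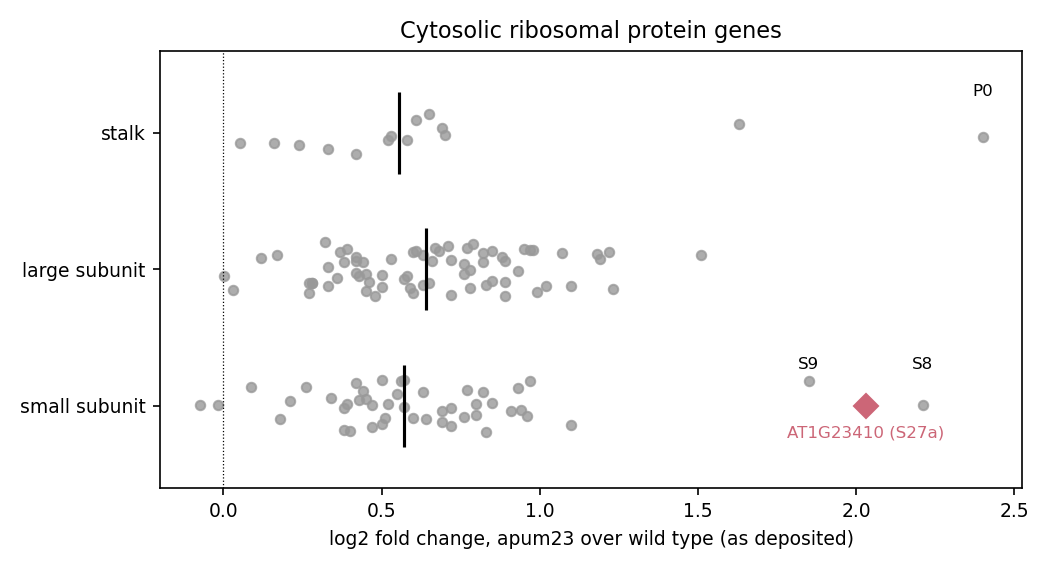
Log2 fold change (apum23 over wild type, as deposited) of the 132 measured cytosolic ribosomal protein genes, by subunit. Each grey point is a gene, vertical bars are medians without AT1G23410, and the diamond is AT1G23410 at 2.03, between S9 (AT5G39850, 1.85) and S8 (AT5G59240, 2.21) and below P0 (AT2G40010, 2.40).

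The genes next to AT1G23410 in size of change were AT2G40010, of the P0 family that forms the base of the ribosomal stalk (2.40), AT5G59240 of the S8 family (2.21) and AT5G39850 of the S9 family (1.85). AT5G39850 had 5.96, 6.42 and 6.76 on wild-type arrays and 8.16, 7.86 and 8.66 on apum23 arrays. The change of AT1G23410 was 0.18 above that of AT5G39850, 0.18 below that of AT5G59240 and 0.37 below that of AT2G40010. Permutation tests of these differences were computed. As the genes were picked here for the size of their change, the p-values are not read as support. The test against AT5G39850 is given below, where that gene is chosen by brightness.

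For these 3 families other paralogs were measured too. Each had a smaller change, which the choice of the stronger risers made likely. In wild type the stronger risers were the dimmer genes (AT5G59240 4.67, AT5G39850 6.38, AT2G40010 6.40). Their paralogs had wild-type means of 12.55 (AT5G20290), 12.13 (AT5G15200), 12.08 (AT3G09200) and 8.07 (AT3G11250). The part of brightness in these gaps was not tested. In the S8 family AT5G20290 changed by 0.43 (limma adjusted p = 0.348), and in the S9 family AT5G15200 by 0.47 (limma adjusted p = 0.28). In the P0 family AT3G09200 rose by 0.69 (limma adjusted p = 0.0344) and AT3G11250 changed by 0.65 (limma adjusted p = 0.054). After quantile normalization all 4 were called higher by limma, at 0.38 to 0.64. The change of the stronger riser exceeded that of its paralog by 1.38 to 1.78 over these 4 pairs, given as a description. Permutation tests computed for these pairs are not read, as the risers were picked for their change. As deposited, AT3G09200 was not called with any of 5 arrays left out, the exception being wild-type replicate 3. It was called in each quantile-normalized fit that leaves out an array. Across the 45 families with at least 2 measured genes, the largest minus the smallest log2 change within a family had a median of 0.35 and reached 1 or more in 5. Genes near the floor of the array were included. Where AT1G23410 stands within its own family cannot be given, as UBQ5 and UBQ6 are not analysed here.

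Intensity affects how large a change an array can show, so AT1G23410 was also set beside ribosomal protein genes of like brightness. Within 1 log2 unit of its mean over the 6 arrays lay 7 other cytosolic ribosomal protein genes. That mean includes the rise of AT1G23410 in apum23, so the match is not independent of that rise. All 7 were called higher as deposited and after quantile normalization, against 5.31% and 9.69% of all probe sets. Their changes ran from 0.72 to 2.40, with a median of 1.23. As deposited, 5 of the 7 were called when wild-type replicate 2 was left out, and 4 when apum23 replicate 2 or apum23 replicate 3 was. The nearest in brightness were AT3G04230 of the S16 family (0.72), AT5G39850 of the S9 family (1.85) and AT2G32220 of the L27 family (1.51). AT1G23410 changed by 1.31 more than AT3G04230 and by 0.52 more than AT2G32220 (two-sided exact permutation p = 0.1 for each, adjusted p = 0.167 over the 5 gene pairs computed). Its change was 0.18 above that of AT5G39850 (two-sided exact permutation p = 0.5, adjusted p = 0.5). The 5 pairs include those with the genes nearest in size of change. As deposited, AT3G04230 itself lost its call when any array other than wild-type replicate 3 or apum23 replicate 1 was left out. It was called in each quantile-normalized fit that leaves out an array.

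Among the other measured genes of the ubiquitin pathway, 2 of 33 were called higher as deposited, a share close to the 5.31% of all probe sets. None of the 9 listed polyubiquitin genes, the 3 genes for ubiquitin joined to the related modifier RUB or the 2 genes for the ubiquitin-activating enzyme E1 had a named probe set, and they are not analysed here. Of 34 listed genes for ubiquitin-conjugating enzymes (E2), which pass activated ubiquitin on, 12 were measured, with 1 called higher, 0 lower and a median change of 0.03. Those 12 ranged from -0.31 to 0.69. At an unadjusted p under 0.05 there was also 1 higher and 0 lower.

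The E2 gene called higher was UBC20, which has a role in the cell cycle, from 7.56 ± 0.13 to 8.25 ± 0.32 (log2 intensity, SD, n = 3; change 0.69, limma adjusted p = 0.036). As deposited, it lost its call when wild-type replicate 1 or 2, or apum23 replicate 2 or 3, was left out. It was called in each quantile-normalized fit that leaves out an array. After quantile normalization UBC20 was at 0.62 (limma adjusted p = 0.00604) and 3 E2 genes were called lower, UBC16 (-0.32), UBC28 (-0.33) and UBC29 (-0.34), all named after their values were seen. On that scale 10.0% of all probe sets were called lower and 9.69% higher. Each of UBC16, UBC28 and UBC29 was called in 1 of the 6 quantile-normalized fits that leave out an array.

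Deubiquitinases include the enzymes that cut ubiquitin from its ribosomal protein. Of 30 listed, 12 were measured, with 1 called higher, 0 lower and a median change of 0.23, or 0.08 after quantile normalization. At an unadjusted p under 0.05 there was 1 higher and 0 lower as deposited, and 3 higher and 0 lower after quantile normalization. With adjustment, 1 was called higher and 0 lower after quantile normalization. The called numbers are close to the share of all probe sets called higher, 5.31% as deposited and 9.69% after quantile normalization. UBP23, of the ubiquitin-specific protease family, rose from 7.60 ± 0.55 to 8.69 ± 0.36 (change 1.09, limma adjusted p = 7.63e-05). That p rests on the spread pooled over all probe sets and not on the gene's own SD. After quantile normalization its change was 1.02 (limma adjusted p = 0.00114). UBP23 stayed called with each array left out in turn. The other 11 changed by 0.40 at most.

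Of 51 listed subunits of the 26S proteasome, 9 were measured. Limma called 0 higher and 0 lower, as deposited and after quantile normalization, and 0 passed an unadjusted p under 0.05 on either scale. Their changes ranged from -0.24 to 0.25 with a median of 0.16. The largest was that of RPN12a, a subunit of the regulatory lid, at 0.25 (limma adjusted p = 0.769).

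The array also carries 5 control probe sets labelled ubiquitin, which report ubiquitin transcripts without naming a gene. They were bright, between 10.68 and 12.76 on the log2 scale. Their differences between genotypes were 0.07 to 0.26, with overlapping genotypes for all 5 (exact permutation p from 0.2 to 0.7, and from 0.625 to 0.7 adjusted over the 5). Relative to the array medians these differences were -0.0985 to 0.0876. Ubiquitin coding sequence is close to identical between genes, and whether the probes for AT1G23410 also bind transcripts of other ubiquitin genes was not tested.

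**Figure D3:**
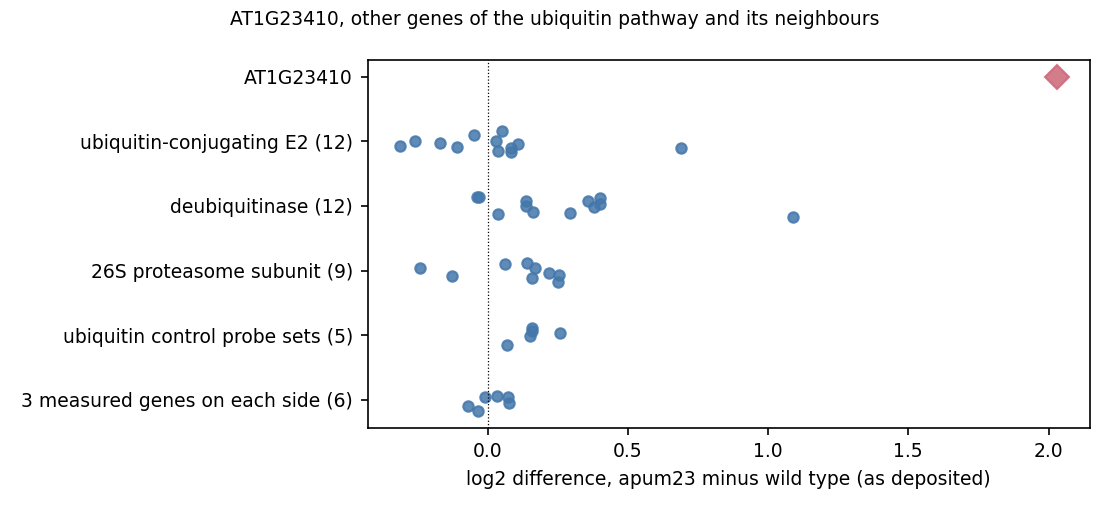
Log2 difference between apum23 and wild type (as deposited) for AT1G23410, 12 E2 genes, 12 deubiquitinase genes, 9 proteasome subunit genes, 5 ubiquitin control probe sets and the 3 nearest measured genes on each side of AT1G23410. Each point is a gene or control probe set, and the next highest after AT1G23410 (2.03) is UBP23 (1.09).

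None of the nearest measured genes around AT1G23410 on the chromosome was called. The nearest 3 measured loci on either side, in the gene order of assembly TAIR10.1, changed by -0.0687 to 0.0762, with limma adjusted p from 0.989 to 0.998. After quantile normalization they were between -0.17 and 0.0292 with limma adjusted p from 0.378 to 0.986. The closest of them was INO, a gene of ovule development 1 place away (0.0762), and the next was AT1G23390, 2 places away (0.0336). The farthest, MENG and AT1G23350, were 8 and 9 places away. INO, AT1G23350 and AT1G23450 were near the floor of the array (wild-type means 3.07, 3.33 and 2.80), so a fall in them could not be read.

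Among 5903 loci brighter than the middle of the array, those whose quantile-normalized values followed AT1G23410 most closely over the 6 arrays were AT1G73490 (Pearson r = 0.9987), AT3G07110 of the L13a family (0.9986), AT3G10530 (0.9984), AT4G15640 (0.9981) and AT2G20060 (0.9975). With 2 genotypes, such a correlation mostly reports that the genotypes differ and that replicates are close, and 150 loci reached 0.98 or more. All 5 differed less than AT1G23410, with AT3G10530 the most changed of them (1.29, limma adjusted p = 1.04e-06). AT3G07110 changed by 0.63 and was called after quantile normalization (limma adjusted p = 0.0015) but not as deposited (0.0672).

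The labelled tissue was checked with marker genes. The leaf genes RCA and PRK were bright on all arrays, at 13.56 to 13.85 and 12.09 to 12.87, and the root hair genes EXPA7 and EXPA18 were at 3.43 to 4.36. PYK10, a root and hypocotyl gene, was at 7.88 to 8.13 in wild type and 7.34 to 8.69 in apum23. None of the 5 was called as deposited. PRK was called lower after quantile normalization (-0.44, limma adjusted p = 0.0172), and its part in the result for AT1G23410 was not tested.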

How the data were processed

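Total RNA from aerial parts was labelled and hybridized to ATH1 arrays, per the labels' protocols. The authors deposited log2 intensities per probe set, and the submitters' processing notes name RMA and limma without versions. The genome build and annotation are not given in the sources used here. Of 22810 probe sets, 64 controls were left out and 22746 tested. Array medians differ, so no quantile step across the 6 arrays is left in the deposited log2 values, which were used as they stand, with quantile normalization as the main alternative. Of 13513 probe sets paired with 1 gene, 13436 matched a RefSeq locus of assembly TAIR10.1.

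The genotypes (3 arrays each) were tested in R 4.3.3 by limma 3.58.1 (lmFit and eBayes, no block, Benjamini-Hochberg adjustment), and an adjusted p under 0.05 was a call. Precision is limited by the number of arrays. Single contrasts within arrays used exact permutation tests. Named genes were the listed loci, up to 2 called members of each list in either direction (otherwise the largest change), the 3 ribosomal protein genes nearest in brightness and the 5 loci most correlated over the arrays. The ribosomal protein list and its family names, and the proteasome list, come from general knowledge and not from the tables. The ribosomal protein list was written after the files were seen, because the gene table holds no descriptions. The 3 genes nearest in size of change, their paralogs, the neighbours and the ubiquitin controls were chosen after their values were seen. The members and lists were chosen with earlier results of these data known, among them the rise of ribosomal protein genes, so that rise is no independent support. Alternatives were quantile normalization, median centring, a replicate block, a filter on the dimmest 40%, an intensity trend, fewer probe sets, other thresholds and each array left out.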

Additional observations from a re-analysis of the deposited data

How the results depend on the processing

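The log2 change of AT1G23410 stayed positive and called in all 22 alternatives, between 1.84 and 2.14 against 2.03. With each array left out in turn it was 1.84 to 2.14 as deposited and 1.86 to 1.98 after quantile normalization. As its groups do not overlap, leaving arrays out could not reverse the direction. With apum23 replicate 1 as a lone mutant array it was 1.89, a fit in which that array is assumed to vary like wild type. The replicate block gave 2.03 (limma adjusted p = 9.28e-06), or 1.91 (limma adjusted p = 2.83e-06) with quantile normalization. Same-numbered arrays had deviations that correlated at -0.29, 0.11 and 0.16, so the number was not taken as a pairing. The excess over the other ribosomal protein genes was 1.32 to 1.44 with each array left out, alternatives that were chosen after seeing the data. The count of those genes called higher, 56 as deposited, was 103 under quantile normalization, 86 with the replicate block, 96 with both, 83 to 94 under quantile normalization with each array left out, and 5 with apum23 replicate 1 alone. For UBC20 and other E2 genes, called numbers were 0 or 1 higher and 0 to 3 lower. The cause was not tested. The alternatives planned for differences between paralogs were not run, since 1 paralog was measured.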
